A study of Rattus norvegicus with 20 samples.

Results

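The quinone reductases Nqo1 and Nqo2 were followed in the livers of 20 female Sprague Dawley rats fed one of 4 diets for 24 days. The members are the probe sets (groups of array probes read as 1 value) that the platform annotation assigns to either gene symbol. There were 2 of 31042 probe sets, for 2 of 14217 named genes: 1 for Nqo1 (1387599_a_at, gene ID 24314) and 1 for Nqo2 (1374959_at, gene ID 291084). Both read above a log2 value of 4 in all 20 arrays and were among the 12947 probe sets tested.

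The 20 rats were divided at random into 4 groups of 5, and there were 5 liver arrays for each diet. BNF rats ate 5,6-benzoflavone at 1650 mg per kg of diet, D3T rats 3H-1,2-dithiole-3-thione at 600 mg per kg, and OLT rats the substituted dithiolethione oltipraz at 500 mg per kg. Control rats ate the same mash diet with nothing added. The rats were of an outbred strain and of one sex, and the labels used here give no age. The doses differ between the compounds and 1 dose of each was fed, so that the sizes below belong to these diets and not to matched doses.

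NQO1 is a cytosolic flavoprotein that passes a pair of electrons from NADH or NADPH to a quinone in one step, which yields a hydroquinone and bypasses the reactive semiquinone. NQO2 is its closest relative and catalyses a similar reaction, but it uses dihydronicotinamide riboside in place of NADH and NADPH. Nqo1 is a textbook target of 2 transcription factors: the aryl hydrocarbon receptor (AhR), which binds planar aromatic ligands such as benzoflavone, and Nrf2 (gene Nfe2l2), which dithiolethiones such as D3T and oltipraz release from its inhibitor Keap1. AhR is known for driving the cytochrome P450 genes of the Cyp1 family, and Nrf2 for driving glutathione transferases and reductases of aldehydes and quinones.

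Both factors bind short DNA elements, so the promoters of both genes were read from the RefSeq promoter table (build GRCr8, both members matched), 250 bases before to 50 bases after the annotated start. They are shown so that the letters known to bind both factors can be looked for beside the start of each gene. Capitals mark every match, on either strand, to 4 motifs: TGACNNNGC, the core of the antioxidant response element bound by Nrf2; GCGTG, the core of the xenobiotic response element bound by AhR; TATAAA, the TATA box; and GGGCGG, the GC box. None of the matches overlap. Nqo1 lies on the minus strand at chr19:52220218-52220517, and Nqo2 on the minus strand at chr17:31143613-31143912.
Nqo1: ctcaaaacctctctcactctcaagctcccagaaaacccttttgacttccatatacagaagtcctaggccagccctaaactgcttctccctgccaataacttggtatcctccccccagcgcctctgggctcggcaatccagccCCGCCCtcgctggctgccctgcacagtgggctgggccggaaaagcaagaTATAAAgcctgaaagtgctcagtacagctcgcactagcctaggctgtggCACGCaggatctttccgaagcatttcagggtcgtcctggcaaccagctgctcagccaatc
Nqo2: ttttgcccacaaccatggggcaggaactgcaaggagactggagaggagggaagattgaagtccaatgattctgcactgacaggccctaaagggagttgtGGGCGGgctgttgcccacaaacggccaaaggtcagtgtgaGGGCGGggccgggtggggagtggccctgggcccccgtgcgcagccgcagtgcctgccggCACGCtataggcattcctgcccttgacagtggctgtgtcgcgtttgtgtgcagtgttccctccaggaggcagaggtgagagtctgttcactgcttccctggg

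Both windows hold 1 match to GCGTG, on the opposite strand, beginning 10 bases before the start in Nqo1 and 52 bases before it in Nqo2. That motif is in 29.7% of all 33469 promoters of this length. TATAAA, in 14.2% of promoters, is in the Nqo1 window, 59 bases before the start, and not in the Nqo2 window. GGGCGG, in 33.1% of promoters, occurs 1 time in Nqo1, 108 bases before the start, and 2 times in Nqo2, 151 and 111 bases before it. TGACNNNGC, in 12.1% of promoters, matches in neither window. Elements further from the start lie outside these windows and were not read, so a missing match does not mean that the gene lacks the element. Nor does a match show that a factor binds there, which was not tested. The windows had a GC content of 56.3% for Nqo1 and 61.7% for Nqo2, beside a median of 51.7% over all promoters.

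Values are log2 probe set summaries, so that a difference of 1 is a doubling. Correlations between arrays across the tested probe sets ran from 0.930 to 0.992, and all 8 hepatocyte markers looked up were measured in every group. The arrays labelled D3T 5 and OLT 1 stood apart. D3T 5 had a mean correlation of 0.968 with its own group and 0.979 with the OLT arrays; OLT 1 had 0.963 with its own group and 0.966 with the D3T arrays. The Nqo1 and Nqo2 results of the dithiolethione diets are therefore given with and without these 2 arrays, and those of named pathway genes where a call changed or a called size moved by over 1.5 times. The 2 arrays were picked from these same data for their likeness to the other dithiolethione group. Leaving them out therefore moves OLT and D3T apart, and p-values for OLT minus D3T without them are no independent support. Differences were tested with limma, with p-values adjusted over all tested probe sets by the Benjamini-Hochberg method and called under 0.05. Nothing in the labels states how many litters or cages the rats came from, so the p-values measure the spread between these rats.

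Nqo1 was highest under BNF, next under D3T, then under OLT, and lowest on the control diet. In BNF livers it read 11.52, 12.14, 11.37, 11.42 and 11.87. In D3T livers it read 11.51, 10.98, 10.96, 11.003 and 9.84, the last in the array labelled D3T 5. In OLT livers it read 11.10, 9.07, 8.82, 9.53 and 9.52, the first in the array labelled OLT 1. In control livers it read 9.003, 8.18, 7.52, 8.78 and 8.74. Every BNF and every D3T array lay above every control array, and 4 of 5 OLT arrays did. The array labelled OLT 1 lay within the range of the D3T arrays and above every other OLT array, and D3T 5 lay below the other D3T arrays and above the other OLT arrays.

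**Figure D1:**
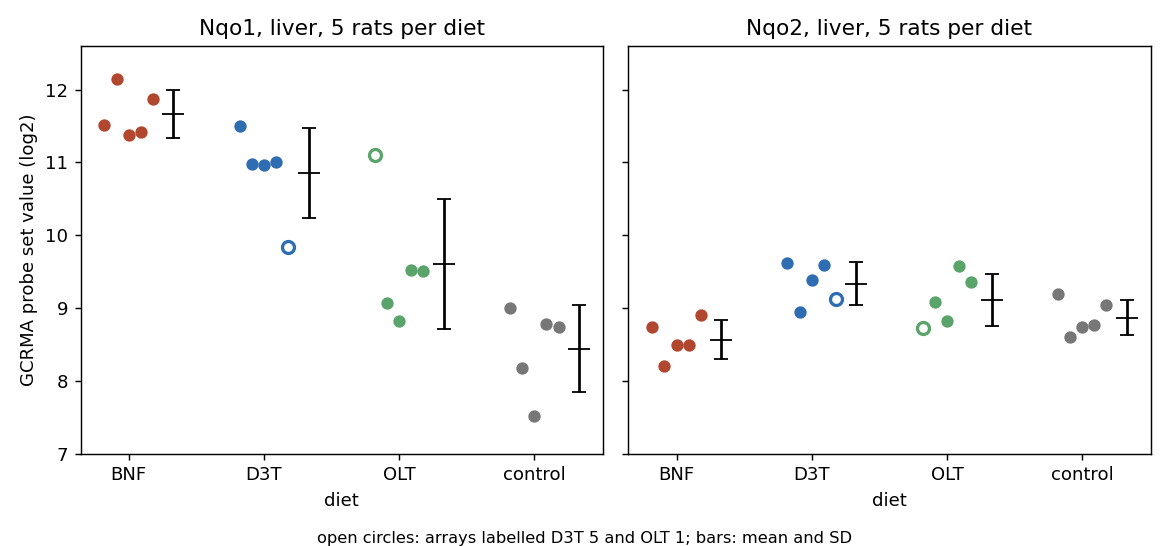
Log2 value (y axis) of Nqo1 (left) and Nqo2 (right) in each liver, by diet (x axis). Points are arrays, bars the group mean and SD (n = 5). Nqo1 lies above 11 in every BNF array and at or below 9.003 in every control array, while the Nqo2 groups all fall between 8.20 and 9.62.

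BNF raised Nqo1 by 3.22 on the log2 scale. The mean was 11.66 ± 0.33 in BNF livers and 8.45 ± 0.60 in control livers (SD, n = 5 each), a 9.31-fold difference with a 95% interval from 5.39 to 16.1 (SE of the log2 difference 0.38, limma adjusted p = 4.36e-05). In this comparison 1.46% of probe sets were called higher, and in 2.62% all BNF arrays lay above all control arrays. By the size of its difference Nqo1 stood at rank 10 of 7837 genes. The exact permutation test, two-sided, gave p = 0.00794, the smallest that 5 against 5 arrays can give. Leaving out any 1 array kept the difference between 2.99 and 3.36 and the call in place.

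D3T raised Nqo1 by 2.41. The mean was 10.86 ± 0.61 in D3T livers and 8.45 ± 0.60 in control livers (n = 5 each), a 5.32-fold difference (95% interval 3.08 to 9.19, SE 0.38, limma adjusted p = 3.90e-04). Here 4.63% of probe sets were called higher, and in 4.15% all D3T arrays lay above all control arrays. Nqo1 stood at rank 14 of 7837 genes. Without the arrays D3T 5 and OLT 1 the D3T mean was 11.11 ± 0.26 (n = 4), and the difference was 2.67 (SE 0.26, adjusted p = 2.86e-06), where 5.52% of probe sets were called higher.

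OLT gave the smallest Nqo1 difference of the 3 diets, and it was not called. The mean was 9.61 ± 0.89 in OLT livers and 8.45 ± 0.60 in control livers, a difference of 1.16 or 2.23-fold (95% interval 1.29 to 3.86, SE 0.38, limma adjusted p = 0.0723). The unadjusted p was 0.00621, and 1.53% of probe sets were called higher. The exact permutation test gave p = 0.0159, unadjusted. The array labelled OLT 1 carried part of this size: without it and D3T 5 the OLT mean was 9.23 ± 0.35 (n = 4) and the difference 0.79, or 1.72-fold (SE 0.26, adjusted p = 0.101), with 1.28% of probe sets called higher. The call also turned with the scaling of the arrays, with adjusted p = 0.0310 after centring each array on its median and 0.0318 after a further quantile normalization, and with array weights (0.95, adjusted p = 0.0310).

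Set against each other at their different doses, 1 of the 3 diet pairs was called for Nqo1 with all 20 arrays. No neighbours in the order BNF, D3T, OLT and control differed at the threshold. BNF exceeded OLT by 2.06 (4.17-fold, 95% interval 2.41 to 7.20, adjusted p = 0.00182), with every BNF array above every OLT array. In that comparison 5.33% of probe sets were called higher under BNF and in 4.29% the groups lay apart in that direction. BNF exceeded D3T by 0.81 (1.75-fold, interval 1.01 to 3.02), which was not called (adjusted p = 0.168); 6.24% of probe sets were called higher there. Without the 2 arrays it was 0.55 (1.46-fold, adjusted p = 0.178), with a log2 interval from -0.00 to 1.10. The BNF and D3T arrays overlapped, with 3 of 5 BNF arrays above the highest D3T array.

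OLT and D3T share the dithiole-thione ring, to which oltipraz adds a methyl and a pyrazinyl group, and for Nqo1 the size of their difference rested on the 2 arrays. As labelled, Nqo1 in OLT was lower than in D3T by a log2 difference of -1.25 (95% interval -2.04 to -0.47), not called (adjusted p = 0.236). No probe set was called between these diets, 0 of 12947, while 1385 had an unadjusted p under 0.05. Without the 2 arrays the difference was -1.88 (interval -2.47 to -1.30, adjusted p = 7.81e-04), and all 4 remaining OLT arrays lay below all 4 remaining D3T arrays. There 2.49% of 12786 probe sets were called lower under OLT, and in 5.30% the groups lay apart in that direction. Leaving out D3T 5 alone gave -1.51 and a call (adjusted p = 0.0440), and leaving out OLT 1 alone gave -1.63 and a call (adjusted p = 0.0203). Because these arrays were picked for their likeness to the other diet, such fits push the groups apart. Their p-values and the separation of the groups are therefore no independent test of the difference.

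**Figure D2:**
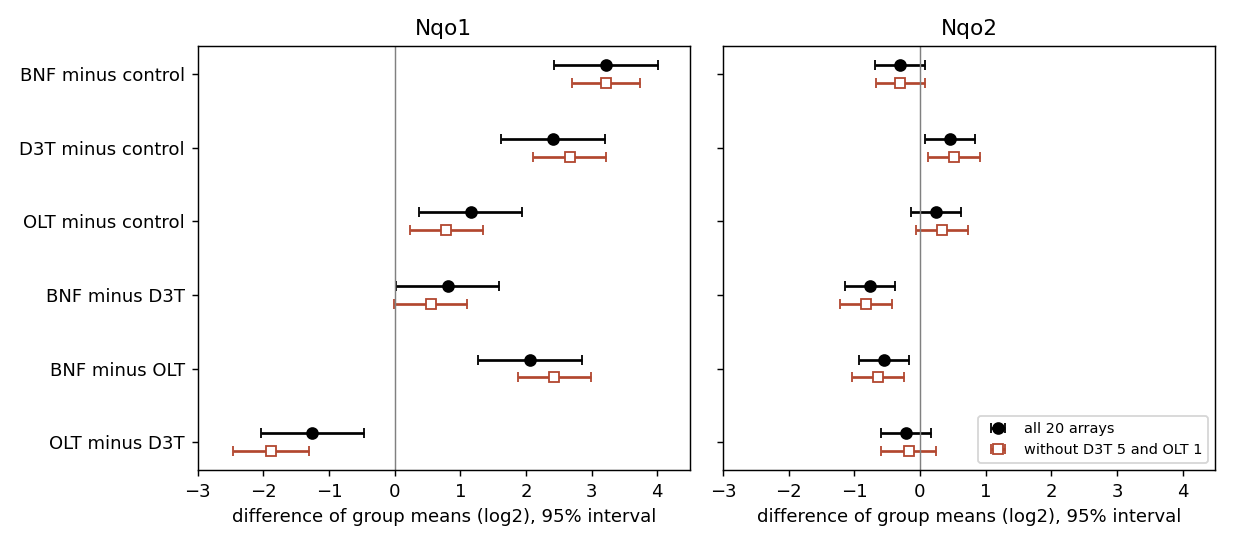
Difference of group means (x axis, log2, with 95% interval) for the 6 comparisons (y axis) of Nqo1 (left) and Nqo2 (right), with all 20 arrays (black) and without D3T 5 and OLT 1 (open squares). Nqo1 differs from control by 3.22 under BNF, 2.41 under D3T and 1.16 under OLT, and every Nqo2 difference is within 1 of 0.

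Nqo2 varied far less and had another order, with D3T highest, then OLT, then control, and BNF lowest. In BNF livers it read 8.74, 8.20, 8.50, 8.50 and 8.91. In D3T livers it read 9.62, 8.94, 9.39, 9.59 and 9.12, and in OLT livers 8.73, 9.08, 8.83, 9.58 and 9.35. In control livers it read 9.20, 8.60, 8.74, 8.77 and 9.04. The control arrays overlapped those of each of the 3 diets.

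With the values as deposited, no diet changed Nqo2 against control at the threshold. Its mean was 8.57 ± 0.27 in BNF livers, 9.33 ± 0.30 in D3T livers and 9.11 ± 0.36 in OLT livers, against 8.87 ± 0.24 in control livers (SD, n = 5 each). The differences from control were -0.30 under BNF (95% interval -0.68 to 0.08, adjusted p = 0.475), 0.46 under D3T (0.08 to 0.84, adjusted p = 0.111) and 0.24 under OLT (-0.14 to 0.63, adjusted p = 0.438). The D3T difference was called after median centring (0.61, adjusted p = 0.00266) and after quantile normalization (0.54, adjusted p = 0.00591). Centring moved the median difference over all probe sets by 0.15 for D3T and 0.17 for OLT, so that 0.15 of the 0.61 is that shift. The SE of the Nqo2 differences fell as well, from 0.183 to 0.125 after centring and to 0.122 after quantile normalization. The OLT difference was called after centring only, at 0.41 (adjusted p = 0.0450).

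Between the diets, Nqo2 was lower under BNF than under D3T by a log2 difference of -0.76 (95% interval -1.15 to -0.38, adjusted p = 0.00803), which is 1.70-fold higher in D3T. All BNF arrays lay below all D3T arrays. In that comparison 8.70% of probe sets were called lower under BNF and in 7.46% the groups lay apart that way, so that this call is among many. BNF minus OLT gave -0.54 (adjusted p = 0.0680), in a comparison with 4.29% of probe sets called lower, and -0.64 without D3T 5 and OLT 1 (adjusted p = 0.0441), where 3.96% of probe sets were called lower. It was called after both scalings too (adjusted p = 0.00199 and 0.00350). OLT minus D3T gave -0.22 (interval -0.60 to 0.16, adjusted p = 0.745). The RefSeq gene table also lists a pseudogene, Nqo2-ps1, and whether the Nqo2 probes read it was not tested, since no probe sequences were used here.

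The responses of the 2 genes were compared directly, array by array, as the Nqo1 value minus the Nqo2 value, with exact two-sided permutation tests adjusted over the 6 comparisons. Against control, Nqo1 responded more than Nqo2 by 3.52 under BNF (adjusted p = 0.0119), by 1.95 under D3T (adjusted p = 0.0119) and by 0.91 under OLT (adjusted p = 0.0381). The last was 0.44 without D3T 5 and OLT 1 (adjusted p = 0.0714). The gap between the genes was wider under BNF than under D3T by 1.57, and wider under BNF than under OLT by 2.60 (adjusted p = 0.0119 each). OLT minus D3T gave -1.04 (adjusted p = 0.111), and -1.71 without the 2 arrays (adjusted p = 0.0343). This last value is no independent support either, since the 2 arrays were picked for their likeness to the other diet.

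Other genes that AhR is known to drive were called under BNF and under neither dithiolethione with all 20 arrays. Of 8 listed genes 5 were measured, and 4 rose under BNF, none under D3T and none under OLT, beside 1.77%, 5.60% and 1.93% of all genes called higher in these comparisons and 2.40%, 7.45% and 5.58% called lower. Of these 4, Cyp1b1 and Aldh3a1 passed the filter on low values only through the 5 BNF arrays, so that they had to differ and their calls add no support. Cyp1a1, the classic P450 of AhR activation, rose by 8.33 under BNF (adjusted p = 6.40e-05), and Cyp1a2, abundant in normal liver, by 0.99 (adjusted p = 0.00406). Aldh3a1, an aldehyde dehydrogenase, averaged 8.24 in BNF livers and 2.98 in control livers, and Cyp1b1 averaged 13.05 in BNF livers and 2.48 in control livers. Both control means lie below the filter level of 4, where the size of a change depends on the background level.

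Cyp1a1 varied among the OLT livers, where it read 3.97, 6.00, 9.97, 10.28 and 7.32, against 3.99, 5.61, 4.37, 5.76 and 6.59 in control livers. The difference of 2.25 was not called (adjusted p = 0.193). Without OLT 1, its lowest array, and D3T 5 it was 3.13 (adjusted p = 0.0198). Cyp1a2 gave 0.41 under OLT, not called (adjusted p = 0.189), and 0.52 without the 2 arrays (adjusted p = 0.0106). Under D3T it gave -0.19 (adjusted p = 0.541). Leaving out D3T 5 and OLT 1 turned this into a call at -0.39 (adjusted p = 0.0246). In D3T livers Cyp1a1 read 5.76, 4.00, 3.98, 3.97 and 8.31, the highest in D3T 5. The 2 OLT arrays highest in Cyp1a1, OLT 3 and OLT 4, read 8.82 and 9.53 for Nqo1.

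Genes that Nrf2 is known to drive rose under D3T, and some of them under OLT. Of 31 listed 23 were measured, of which none was called under BNF, 14 rose under D3T, and 6 rose and 1 fell under OLT. Among the 14 was Abcc4, an efflux transporter, with means of 3.80 in control, 3.86 in BNF and 5.60 in D3T livers. The first 2 lie below the filter level of 4, so the filter partly set this call, which adds no support. The shares of all genes called higher were 1.77% under BNF, 5.60% under D3T and 1.93% under OLT, and 5.58% were called lower under OLT. The medians were 0.20 under BNF, 1.21 under D3T and 0.55 under OLT, against -0.06, -0.02 and -0.05 over all genes. Akr7a3, which reduces aflatoxin dialdehyde, gave -0.01 under BNF (adjusted p = 0.999) and rose by 4.36 under D3T (adjusted p = 1.61e-04) and by 2.57 under OLT (adjusted p = 0.0166), which was 1.91 without D3T 5 and OLT 1. Akr1b8, an aldo-keto reductase, and Gstp1, the pi-class glutathione transferase, rose under D3T by 8.06 and 6.76. Without D3T 5 and OLT 1 these differences were 9.64 and 7.70, and the control mean of Akr1b8, 4.04, lies at the filter level. Under OLT Gstp1 gave 3.26, not called (adjusted p = 0.0598), and without the 2 arrays 2.09, called (adjusted p = 3.64e-04). Me1, the NADPH-forming malic enzyme, rose by 2.61 under D3T and by 1.28 under OLT (adjusted p = 0.0369); the OLT call was lost without OLT 1 alone, among others. Ephx1, microsomal epoxide hydrolase, rose by 2.24 under D3T and 1.70 under OLT and gave 0.76 under BNF (adjusted p = 0.0929). Hmox1, heme oxygenase 1, fell under OLT by 1.74 (adjusted p = 0.0108). Gclc, of glutathione synthesis, gave -0.20, 0.30 and -0.03 under BNF, D3T and OLT, none called.

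None of these 28 measured target genes, which do not include Nqo1, was called higher under BNF and also under D3T. Without D3T 5 and OLT 1, which enter the variance shared by all comparisons, 4 Nrf2 targets were called under BNF as well: Gstp1 by 2.72 (adjusted p = 7.86e-06), Ephx1 by 0.76 (adjusted p = 0.00712), Mgst2, a microsomal glutathione transferase, by 0.71, and Abcc2, an efflux transporter, by 0.48. Of these, Gstp1, Ephx1 and Mgst2 also rose under D3T. In that fit 16 Nrf2 targets rose under D3T, Abcc4 again among them, and 6 rose and 2 fell under OLT. The same fit called 1.76%, 5.52% and 1.28% of all probe sets higher under BNF, D3T and OLT, and 3.40% lower under OLT. Of the 2 AhR targets called there under OLT, Cyp1a1 and Cyp1a2, neither was called higher under D3T. Since all 3 comparisons share the control arrays, these calls are not independent of each other.

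**Figure D3:**
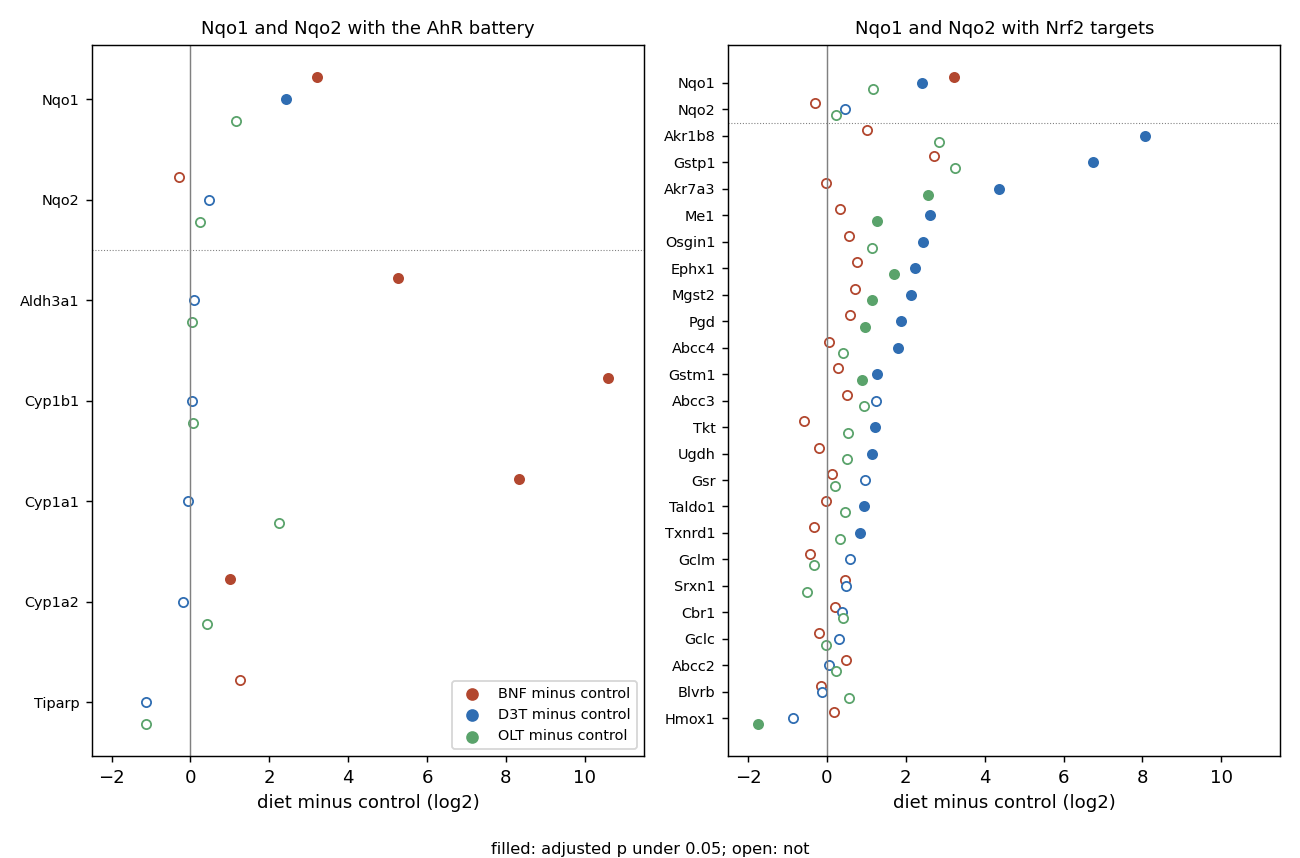
Differences from control (x axis, log2) under BNF, D3T and OLT for Nqo1, Nqo2 and the measured genes (y axis) of the AhR battery (left) and of Nrf2 targets (right); filled points were called. Nqo1 is filled for BNF (3.22) and D3T (2.41), Cyp1a1 (8.33) and Cyp1a2 (0.99) are filled for BNF alone, and 14 of 23 Nrf2 targets are filled for D3T.

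The regulators of both pathways differed from control by at most 1.11 in size where they were called. Of 8 measured genes of the Nrf2 machinery, 2 rose under BNF, 2 rose and 1 fell under D3T, and none was called under OLT. Beside these stand 1.77% of all genes called higher under BNF, and 5.60% called higher and 7.45% lower under D3T. Nfe2l2, which encodes Nrf2, rose by 0.91 under BNF (adjusted p = 0.0266) and fell under D3T by 1.11 (adjusted p = 0.00306), and gave -0.63 under OLT (adjusted p = 0.0959). The BNF call was lost without control 4, control 5, BNF 1, BNF 2 or BNF 4 (highest adjusted p 0.0924 over all alternatives). In BNF livers Nfe2l2 read 12.25 to 12.96 with a median of 12.49, in D3T livers 9.93 to 10.84, against 11.38 to 11.86 in control livers, and neither diet overlapped control. Of all probe sets, 2.62% lay apart from control with all BNF arrays higher, and 5.62% with all D3T arrays lower. Keap1, the inhibitor of Nrf2, rose by 0.63 under D3T (adjusted p = 0.00361), but gave 0.21, not called (adjusted p = 0.631), as the mean of its probe sets. The adaptor Sqstm1 rose by 0.51 under D3T and the small Maf gene Mafk by 0.50 under BNF (adjusted p = 0.0188 and 0.0185). Ahr gave 0.86 under BNF, -0.37 under D3T and 0.29 under OLT, none called (adjusted p from 0.496 to 0.780). Of 3 measured genes of the AhR machinery, the chaperones Hsp90ab1 and Ptges3 fell under D3T, by 0.72 and 0.45.

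Among other reductases of quinones and carbonyls, 1 was called under BNF. Of 14 measured, 1 fell under BNF, 4 rose under D3T and 2 rose under OLT, with medians of -0.16, 0.30 and 0.30. Over all genes 1.77%, 5.60% and 1.93% were called higher under these diets, and 2.40%, 7.45% and 5.58% lower. The BNF count is too small to set apart from the share over all genes. Akr7a3 and Akr1b8 were counted among the Nrf2 targets too, and Txnrd1 below likewise, so these counts share calls. Dcxr, the dicarbonyl and L-xylulose reductase, rose by 0.57 under D3T (adjusted p = 0.00837) and by 0.48 under OLT (adjusted p = 0.0334). Its OLT difference was 0.45 and not called without D3T 5 and OLT 1 (adjusted p = 0.0840). Akr7a2, the relative of Akr7a3, rose by 0.48 under D3T (adjusted p = 0.0494). Ptgr3, the prostaglandin reductase 3 gene, fell under BNF by 0.84 (adjusted p = 0.0428). Cbr1, the carbonyl reductase with quinone substrates, was called in none of the 3. Without D3T 5 and OLT 1, 6 rose under D3T and 1 under OLT; the 2 added under D3T were Cryz, the zeta-crystallin quinone reductase, by 0.60, and Ptgr1 by 1.06.

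Enzymes that reduce quinones by single electrons, the reaction NQO1 bypasses, moved in both directions under the dithiolethiones. Of 7 measured, none was called under BNF, 3 rose and 1 fell under D3T, and 1 rose and 1 fell under OLT. Among all genes 5.60% were called higher and 7.45% lower under D3T, and 1.93% higher and 5.58% lower under OLT. Por, the NADPH-cytochrome P450 reductase, fell under D3T by 1.88 (adjusted p = 2.54e-05) and under OLT by 1.14 (adjusted p = 0.00406), and gave -0.37 under BNF (adjusted p = 0.447). Cyb5r3, NADH-cytochrome b5 reductase, rose by 1.004 under D3T (adjusted p = 1.76e-04) and by 0.49 under OLT (adjusted p = 0.0458). Without D3T 5 and OLT 1 the OLT difference was 0.40 and not called (adjusted p = 0.0990). Aox1, aldehyde oxidase, rose by 1.06 under D3T (adjusted p = 0.00345), and Txnrd1, thioredoxin reductase 1, by 0.84 (adjusted p = 0.0463).

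**Figure D4:**
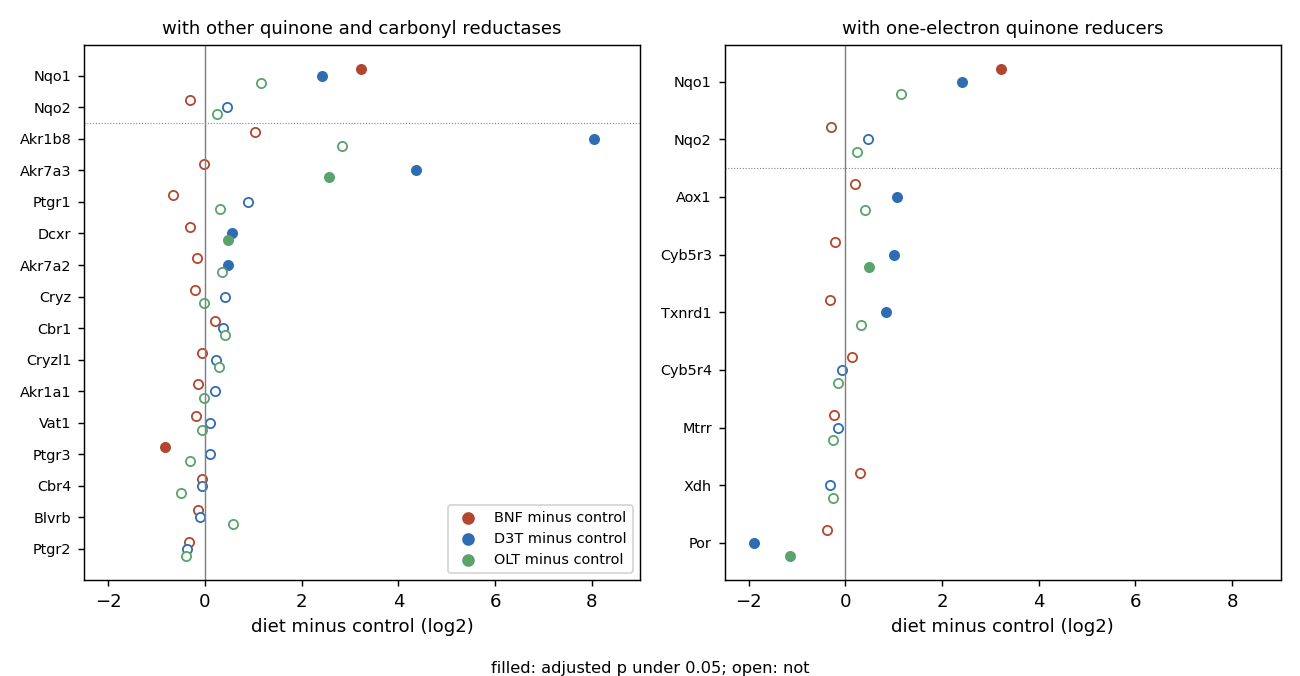
Differences from control (x axis, log2) for Nqo1, Nqo2 and the measured genes (y axis) of other quinone and carbonyl reductases (left) and of single-electron quinone reducers (right); filled points were called. Under BNF, Nqo1 (3.22) is the one filled point to the right of 0, and Por is filled to the left of 0 for D3T (-1.88) and OLT (-1.14).

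The genes most like Nqo1 over the 20 arrays, by Pearson correlation among the 7836 other genes, are given here as a description. They were Nipal2, a magnesium transporter family gene (r = 0.91), Selenbp1, selenium-binding protein 1 (r = 0.86), Cpb2, the plasma carboxypeptidase B2 (r = 0.86), Trib3, a pseudokinase (r = 0.83), and Pon3, a paraoxonase (r = 0.79). After diet means were taken out, r was 0.62, 0.72, 0.42, 0.75 and 0.16 in the same order. The arrays share diet groups, so that these values describe likeness and no test was made. Nipal2 rose by 1.85 under BNF (adjusted p = 7.26e-04) and by 1.45 under D3T (adjusted p = 0.00242), to means of 4.85 and 4.45 close to background. Its control mean was 3.00 (SD 0.47), below the filter level of 4, so it passed the filter through arrays of the other diets. The filter thus partly set these Nipal2 calls, and they add no support. Cpb2 rose by 0.69 under BNF and 0.47 under D3T, and Pon3 by 0.60 and 0.37. Selenbp1 and Trib3 were called under BNF, at 0.99 and 2.14, and not under D3T.

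The genes most like Nqo2 were Asap2, an Arf GTPase-activating protein (r = 0.91), Rdx, the cytoskeletal linker radixin (r = 0.91), Manea, an endomannosidase (r = 0.90), Dhtkd1, a mitochondrial dehydrogenase of lysine breakdown (r = 0.90), and Tex2 (r = 0.89). Their r after diet means were taken out was 0.82, 0.94, 0.81, 0.77 and 0.76. Each of these values is 1 correlation over the 20 arrays, not one within a single diet. The arrays were not centred for these correlations, and how far differences in array scale enter them was not tested. Of the 5, Asap2 rose under D3T by 1.52 (adjusted p = 0.0209) and Dhtkd1 by 0.57 (adjusted p = 0.0234).

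Liver RNA mixes cell types, and a higher value cannot be told apart from more cells of a type that holds the transcript. Markers of other cells moved under BNF: 4 of 7 measured stellate cell markers rose, among them Col1a1 by 2.45, 1 of 7 macrophage markers (Tyrobp, by 0.93), 1 of 3 lymphocyte markers (Cd74, by 1.38), 1 of 4 cholangiocyte markers (Aqp1, by 1.61) and none of 5 endothelial markers. The share of all genes called higher under BNF was 1.77%. The summed linear signal of the stellate markers ran from 2895 to 5209 in BNF livers and from 1468 to 2262 in control livers, and that of the lymphocyte markers from 2967 to 5189 in BNF livers and from 1041 to 2326 in control livers, without overlap in either. The macrophage sums ran from 2561 to 5429 in BNF livers and from 1610 to 2562 in control livers, and the cholangiocyte sums from 8910 to 11658 in BNF livers and from 6154 to 10616 in control livers. The endothelial sums ran from 758 to 1625 in BNF livers and from 552 to 1169 in control livers, with overlap. The median difference was 1.11 for the lymphocyte, 1.08 for the macrophage and 0.85 for the stellate markers. It was 0.71 for the endothelial and 0.41 for the cholangiocyte markers. The defining cholangiocyte markers Krt19, Krt7, Sox9, Spp1 and Cftr did not pass the filter. The call of Aqp1 was lost without D3T 5 and OLT 1 (adjusted p = 0.0553). Under D3T and OLT no marker of these 5 types rose; Acta2 fell under D3T by 0.88 and Cd163 fell under OLT by 1.46 (not called without the 2 arrays, adjusted p = 0.0757). The part of these cells in the Nqo1 differences was not tested.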

How the data were processed

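The table holds log2 values that the authors made with GCRMA, per the submitters' processing notes; its version is not given in the sources used here. GCRMA subtracts background, equalizes the arrays' distributions and combines probes into probe sets. The values were used as deposited. The deposited arrays still differed in scale, with medians over the tested probe sets from 6.92 in OLT 3 to 7.47 in control 1. Names come from the platform annotation, updated by gene ID through the RefSeq table (20758 of 20826 probe sets with 1 gene; 436 had several, 9780 none). The 12947 probe sets that exceeded 4 on 5 or more arrays were tested, and a gene was read from whichever of its tested probe sets averaged highest. Tests used limma 3.58.1 in R 4.3.3 (lmFit, and eBayes with an intensity trend), 1 mean per diet over 20 arrays, two-sided, for 6 comparisons. Rats with the same number correlated above 0.1 in 11 of 30 pairs, so the numbers were not taken to pair rats.

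The members and lists were chosen with earlier results of these data known. Named were the member probe sets, up to 4 called genes per list with the largest difference (8 for quinone reductases), pathway landmarks, and the 5 genes most like each member. Mgst2, Abcc2, Abcc4, Hmox1, Cbr1, Cryz and Ptgr1 were named after their values were seen. The methods were tested on simulated data. Alternatives changed the scaling, filter, moderation, weights, arrays fitted, probe set rule or test, or added a replicate block. The number of arrays limits the precision.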

Additional observations from a re-analysis of the deposited data

Results flagged for a closer look

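No value of Nqo1 or Nqo2 lay far enough from the rest of its group of 5 to be listed here. The gap of the array labelled OLT 1 to its nearest neighbour was 0.689 of the range of the OLT arrays for Nqo1, and the largest gap among the D3T arrays was 0.675, each below the limit of 0.71 (Dixon's 95% value for 5 samples). Of 204 groups examined over 51 named genes, 25 held an array beyond the limit, where chance flags about 1 in 20 groups. Of these, 7 were in D3T 5, 6 in OLT 1 and 12 in other arrays.

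D3T 5 was far below the other D3T arrays for Akr7a3 (11.35), Akr1b8 (5.77), Gstp1 (10.30), Me1 (9.84), Aox1 (12.40) and Trib3 (6.42), and above them for Cyp1a2 (14.51). OLT 1 was far above the other OLT arrays for Akr7a3 (14.33), Akr1b8 (13.61), Gstp1 (15.26), Cyb5r3 (11.53), Aox1 (13.41) and Txnrd1 (11.82). Among the other arrays, BNF 2 was low for Ptges3 (12.05) and Selenbp1 (11.86), and BNF 1 was high for Col3a1 (11.92). D3T 2 was low for Tyrobp (3.97) and for Tex2 (8.81). OLT 3 was low for Mafk (4.36) and Nipal2 (2.70), and OLT 4 for Dcn (3.30). Control 3 was low for Cat (13.82) and high for Acta2 (8.62), and control 1 was high for Cpb2 (12.09) and Rdx (11.84).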

How the results depend on the processing

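Nqo1 kept its direction and its call for BNF minus control (2.99 to 3.36), D3T minus control (2.18 to 2.67) and BNF minus OLT (1.86 to 2.43), and Nqo2 for BNF minus D3T (-0.86 to -0.67), under 12 alternative settings and 20 fits that left out 1 array each. No member difference changed direction. Nqo1 for OLT minus control, not called as reported, was called at 1.33 after median centring, 1.26 after quantile normalization, 0.95 with array weights, 1.16 with the replicate block (adjusted p = 0.0480) and 1.16 by the unadjusted exact permutation test; it was not called without any 1 array (0.79 to 1.36). Nqo1 for OLT minus D3T was called at -1.50 with array weights, at -1.88 without both D3T 5 and OLT 1, at -1.25 by the exact test, and without D3T 5 or OLT 1 alone (range without 1 array -1.63 to -1.06). The array weights and these 2 arrays were set from these same data, so the calls that rest on them are no independent support. Nqo1 for BNF minus D3T passed at 0.81 only in the exact test. Nqo2 for D3T minus control was called at 0.61 after centring, 0.54 after quantile normalization, 0.56 with array weights and 0.46 by the exact test, and for OLT minus control at 0.41 after centring. Nqo2 for BNF minus OLT was called at -0.64 after centring, -0.59 after quantile normalization, -0.58 with array weights, -0.64 without both arrays, -0.54 by the exact test, and without BNF 5 or OLT 1 (range without 1 array -0.64 to -0.43). Nqo1 less Nqo2 for OLT minus control was 0.44 and not called without both arrays, nor without control 1, control 2, control 3, control 5 or OLT 1 (0.44 to 1.05); for OLT minus D3T it was called at -1.71 without both arrays and also without OLT 1 (-1.51 to -0.90). The cause was not tested.

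The replicate block changed no other call of Nqo1 or Nqo2; a rat correlated best with the rat of its own number in 15 of 60 choices. Total calls moved with the settings: 450 for BNF minus control (243 without BNF 1 to 1480 with array weights), 1502 for D3T (974 without a filter to 2885), 826 for OLT (389 with only the 2 groups to 2054), 1935 for BNF minus D3T (1347 to 3337), 1246 for BNF minus OLT (744 without BNF 1 to 2767) and 0 for OLT minus D3T (0 to 549 without both arrays). Higher and lower calls were 189 and 261 for BNF minus control (289 and 212 after centring, 312 and 262 after quantile normalization), 599 and 903 for D3T (1227 and 718 after centring), 198 and 628 for OLT (635 and 497 after centring, 505 and 654 after quantile normalization) and 690 and 556 for BNF minus OLT (721 and 1011 after centring). Of 36 calls of named list genes against control, 23 stood under every alternative that tested them and none changed sign; Ptgr3, Akr7a2, Txnrd1, Nadk and, for OLT, Cyb5r3 were lost under 15 to 20 of 31, Me1 and Dcxr for OLT under 9, Nfe2l2 for BNF under 6 and Coq8a for D3T under 5. Called AhR targets under BNF went to 2 when a BNF array was left out, since Cyp1b1 and Aldh3a1 then had too few arrays above the filter.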

Other observations

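A few genes around the quinone pool and its cofactors were called under D3T, in both directions. Of 10 measured genes of ubiquinone synthesis and the vitamin K cycle, 3 rose under D3T and none was called under BNF or OLT, with medians of 0.17, -0.05 and 0.11. For comparison, 5.60% of all genes were called higher under D3T. Vkorc1, the vitamin K epoxide reductase, rose by 0.58 (adjusted p = 6.50e-04), its relative Vkorc1l1 by 0.77 (adjusted p = 0.0190), and Coq8a, a kinase-like protein of ubiquinone synthesis, by 0.84 (adjusted p = 0.0227). Of 10 measured genes of superoxide and peroxide removal, Cat, catalase, and Prdx2, a peroxiredoxin, rose under D3T by 0.44 and 0.48 (adjusted p = 0.00831 and 0.00836), and none was called under BNF or OLT.

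Of 12 measured genes that supply flavin and nicotinamide cofactors, 1 fell under BNF, 1 rose and 1 fell under D3T, and 1 fell under OLT. Over all genes 2.40% were called lower under BNF, 5.60% higher and 7.45% lower under D3T, and 5.58% lower under OLT. Counts of 1 gene are too small to set apart from these shares. Nampt, the rate-limiting enzyme of NAD salvage, fell under D3T by 1.43 (adjusted p = 0.0142) and under OLT by 1.64 (adjusted p = 0.00968), and gave -0.98 under BNF (adjusted p = 0.160). Nadk2, the mitochondrial NAD kinase, fell under BNF by 0.89 (adjusted p = 0.00610), and Nadk, the cytosolic NAD kinase, rose under D3T by 0.33 (adjusted p = 0.0495).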
